A study of Saccharomyces cerevisiae with 12 samples.

Results

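B184 is an α-amylase-secreting strain of Saccharomyces cerevisiae, and it was compared with its ancestor AAC in aerobic, carbon-limited chemostats run at a dilution rate of 0.1/h. A chemostat is fed and drained at the same rate, so the dilution rate sets the growth rate. The comparison used 4 of the 12 RNA-seq libraries of the series, the 2 B184 replicates and the 2 AAC replicates at 0.1/h, and covered every gene that passed a filter on low counts. This left 6044 of 7126 genes, of which 5561 lay outside chromosome III, 151 lay on chromosome III and 332 had no position in the annotation. Chromosome III was set apart because its genes differed between the strains as a block, with 136 of its 151 genes (90.1%) passing the test. The functions below are counted outside it.

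Both strains carry the host of AAC, a MATa strain of the CEN.PK family whose TPI1 gene, encoding triose phosphate isomerase, is deleted. Growth on glucose is restored by a 2µ plasmid that carries the Schizosaccharomyces pombe POT1 gene as its marker and the α-amylase gene between the TPI1 promoter and terminator. AAC was UV mutagenized to give MH34, and MH34 was UV mutagenized to give B184, so B184 stands for a single evolved isolate. The feed held glucose and amino acids for both strains. By the methods, pure ethanol was also added to the B184 and MH34 bioreactors at 0.1/h to prevent oscillations, and it is not named for AAC. Strain and ethanol therefore cannot be told apart at 0.1/h. No ethanol is named for any culture at 0.2/h, where the same strains were also compared, so dilution rate and ethanol cannot be told apart when the rates are set side by side.

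As background, yeast that runs short of glucose can burn ethanol, acetate and fatty acids instead. Ethanol is oxidized through acetaldehyde and acetate to acetyl-CoA, which the glyoxylate cycle turns into C4 acids and gluconeogenesis into sugar. Glucose represses many of these genes, though not all. The transcription factors Adr1, Cat8 and Sip4 activate overlapping subsets of the repressed genes once the repression is lifted. In S. cerevisiae fatty acids are oxidized in peroxisomes, and the acetyl units leave them as glyoxylate cycle products or as acetylcarnitine.

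The B184 libraries held 6984376 and 6580892 counts and the AAC libraries 6040221 and 7304298 counts. Values are given as CPM, a gene's counts relative to the library size after TMM scaling, a correction for library composition. The 2 AAC replicates differed more than the 2 B184 replicates, with a median absolute difference of 0.155 against 0.096 on the log2 scale, and 7.62% of genes differed by more than 0.5 between the AAC replicates, against 0.992% between the B184 replicates. The labels call the replicates biological without naming separate cultures, so p-values may measure only the spread between libraries. That spread was pooled over the 12 libraries in 6 groups, whose median absolute differences ran from 0.0505 to 0.155. TPI1, deleted apart from its ends, still had 75.7 and 91.8 CPM in B184 and 64.9 and 60 CPM in AAC. The MATa markers STE2, the α-factor receptor, and MFA1, an a-factor gene, were at 630 and 714 CPM and at 410 and 510 CPM in B184, against 484 and 321 CPM and 439 and 371 CPM in AAC. STE3, the receptor of α cells, was at 19.4 and 19.3 CPM in B184 and 36.6 and 34.6 CPM in AAC.

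Outside chromosome III, 2019 of 5561 genes (36.3%) differed between B184 and AAC at an adjusted p under 0.05, by the quasi-likelihood test of edgeR, with p-values adjusted over 6044 genes after Benjamini and Hochberg. In B184 825 of them (14.8% of the genes) were higher and 1194 (21.5%) were lower. The replicates of the strains did not overlap in 65.6% of all genes, 28.1% higher and 37.5% lower, and in each of the 2019 called genes. A log2 fold change of at least 1 in either direction was reached by 191 of the higher and 100 of the lower genes. Fitted on the 4 libraries alone, 980 genes passed (17.6%), 507 higher and 473 lower, and 958 of these were among the 2019. The median log2 fold change over all 5561 genes was −0.05.

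The 10 widest gaps above AAC were those of FLO11, HXT3, HUG1, DFP4, TIR3, RSB1, VBA5, PCK1, HMS1 and LSO1. The 10 widest gaps below it were those of HXT6, CSS1, ADH2, ATO3, PHO84, PDR12, POX1, PHO5, ATO2 and ALD4. Hexose carriers, cell wall proteins and enzymes of carbon metabolism thus stood at both ends of the ranking, and the phosphate genes PHO84 and PHO5 at the lower end. The members of 22 functions are plotted by their log2 fold change.

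**Figure D1:**
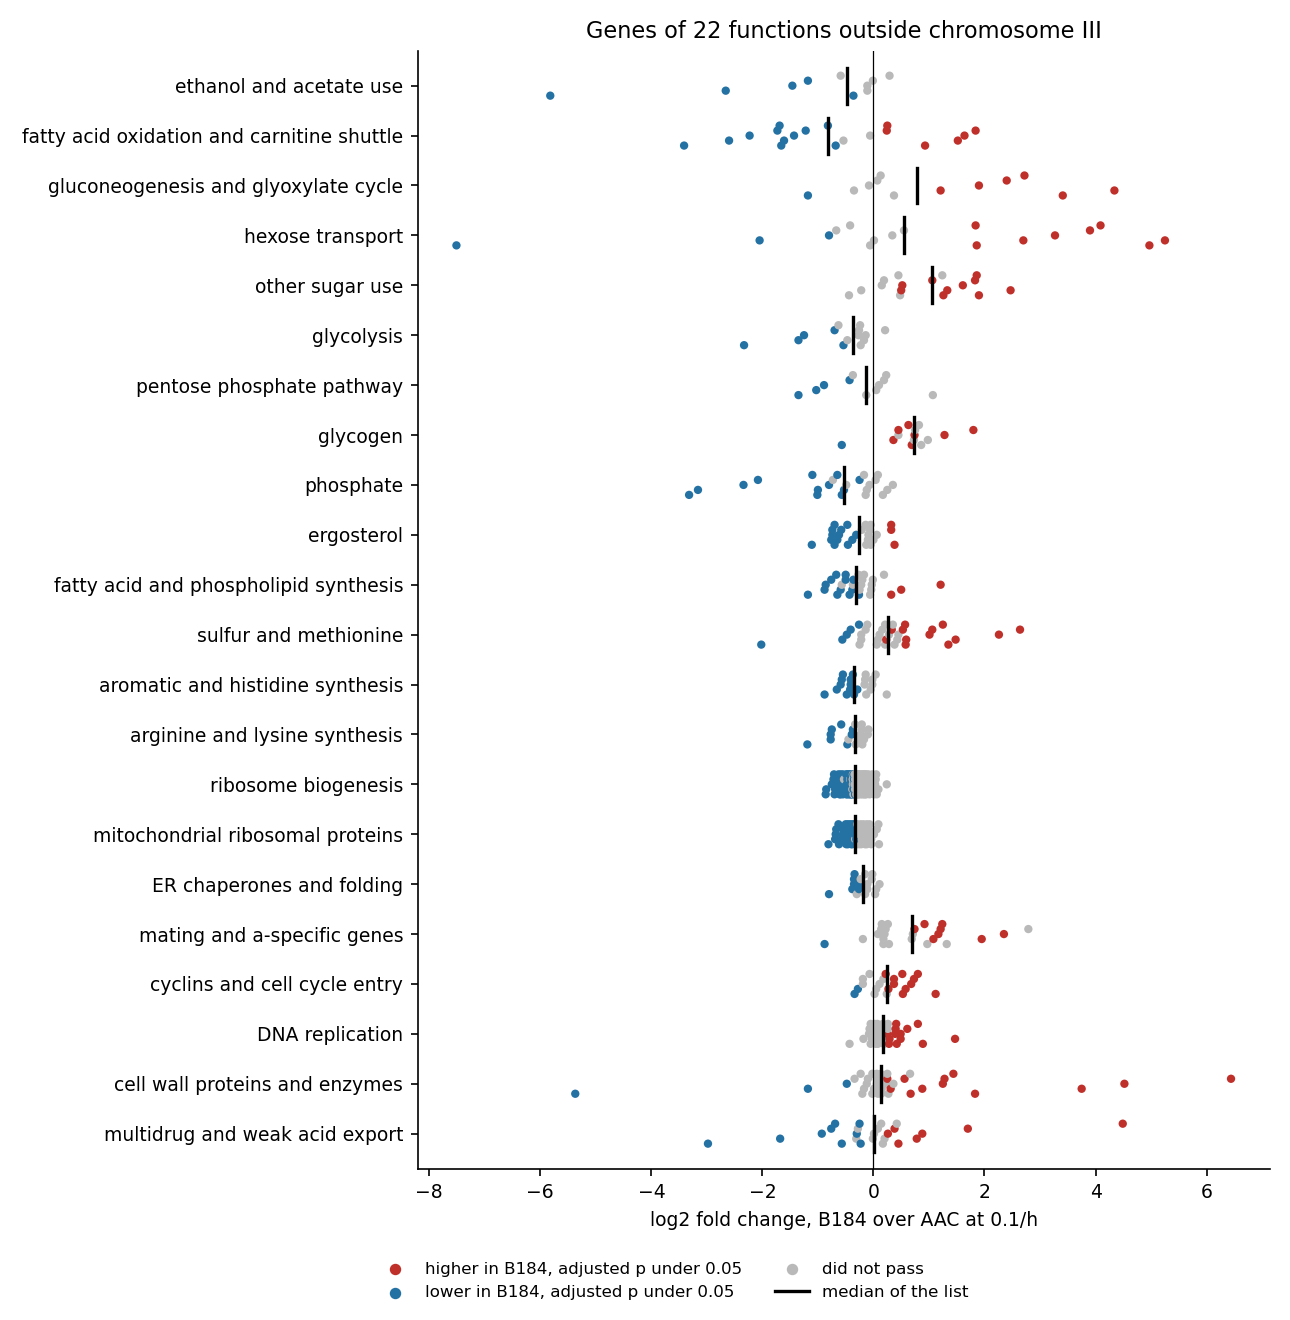
Each point is a gene outside chromosome III, placed by its log2 fold change of B184 over AAC at 0.1/h (x axis) within a list of genes of a known function (y axis). Red points were higher and blue points lower in B184 at an adjusted p under 0.05, grey points did not pass, and the black bar is the median of the list. ADH2 of ethanol use stood at −5.82 and PCK1 of gluconeogenesis at 4.34, at opposite ends of neighbouring pathways.

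The first steps of ethanol use were lower in B184, the culture that received ethanol. Of 10 tested genes of ethanol and acetate use, with a median log2 fold change of −0.47, 5 fell and none rose. Among all genes 21.5% fell and 14.8% rose. In the fit of 4 libraries 3 genes of the list fell. ADH2, the alcohol dehydrogenase that oxidizes ethanol, had 11.9 and 10.8 CPM in B184 and 393 and 891 CPM in AAC. Every AAC value was far above every B184 value, although the AAC replicates themselves differed by more than the B184 replicates. The log2 fold change was −5.82 ± 0.72 (n = 2 each, edgeR adjusted p = 8.5e-04). Here and below ± gives the absolute log2 fold change divided by the square root of the test's F statistic, in place of an estimated SE.

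ALD4, the main mitochondrial acetaldehyde dehydrogenase, had 915 and 1016 CPM in B184 and 4657 and 7513 CPM in AAC, again without overlap (log2 fold change −2.66 ± 0.33, edgeR adjusted p = 3.0e-04). ALD6, its cytosolic counterpart, had 728 and 828 CPM in B184 and 2018 and 1514 CPM in AAC (−1.18 ± 0.22, edgeR adjusted p = 0.0019). ACS1, an acetyl-CoA synthetase, had 324 and 332 CPM in B184 and 247 and 738 CPM in AAC. The AAC replicates of ACS1 enclosed the B184 values, and the difference did not pass (−0.59 ± 0.47, edgeR adjusted p = 0.36), although it passed without AAC replicate 1 (adjusted p = 0.016). ATO3 and ATO2, plasma membrane proteins of a family linked to ammonium export and acetate uptake, fell as well. ATO3 had 19.4 and 23.4 CPM in B184 and 260 and 427 CPM in AAC (−4.01 ± 0.36, edgeR adjusted p = 1.4e-04). ATO2 had 205 and 145 CPM in B184 and 1146 and 1724 CPM in AAC (−3.03 ± 0.55, edgeR adjusted p = 0.0051).

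Genes of fatty acid oxidation and of the carnitine shuttle moved in opposite directions. Of 19 tested members 11 fell and 6 rose (21.5% and 14.8% among all genes), with a median of −0.82. The genes that fell were the peroxisomal enzymes POX1, FOX2, FAA2, CTA1, ECI1, SPS19 and TES1, the peroxisomal fatty acid importers PXA1 and PXA2, the peroxisome division factor PEX11 and the oleate-responsive transcription factor PIP2. The genes that rose were YAT1, YAT2, CRC1 and CAT2, which make and carry acetylcarnitine, and, by small amounts, the fatty acid transporter FAT1 (0.24) and the transcription factor OAF1 (0.25). The calls of FAT1, OAF1, PXA1 and PXA2 were lost in the fit of 4 libraries (edgeR adjusted p between 0.076 and 0.11), and those of FAT1 and PXA2 also without either B184 replicate.

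POX1, the acyl-CoA oxidase that starts each round, had 55.3 and 52.8 CPM in B184 and 408 and 743 CPM in AAC (log2 fold change −3.41 ± 0.30, edgeR adjusted p = 1.0e-04). FOX2, the multifunctional enzyme of the following steps, had 109 and 112 CPM in B184 and 437 and 904 CPM in AAC (−2.60 ± 0.31, edgeR adjusted p = 6.3e-04). FAA2, which activates medium-chain fatty acids in the peroxisome, had 51.7 and 57.8 CPM in B184 and 205 and 308 CPM in AAC (−2.23 ± 0.17, edgeR adjusted p = 9.1e-06). In each of these the AAC replicates were higher throughout, and AAC replicate 2 was the highest library. FAA2 overlaps BUD25 on the opposite strand. TES1, a peroxisomal thioesterase, fell by 1.69 ± 0.13 (edgeR adjusted p = 5.4e-06). CTA1, the peroxisomal catalase, had 139 and 105 CPM in B184 and 242 and 563 CPM in AAC, and its call (−1.73 ± 0.38, edgeR adjusted p = 0.011) was lost in the fit of 4 libraries (adjusted p = 0.1) and without B184 replicate 2 (adjusted p = 0.069).

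The carnitine genes moved the other way. YAT1, an outer mitochondrial carnitine acetyltransferase, had 210 and 254 CPM in B184 and 64.5 and 64.8 CPM in AAC (log2 fold change 1.84 ± 0.17, edgeR adjusted p = 3.3e-05). YAT2, a cytosolic carnitine acetyltransferase, had 652 and 598 CPM in B184 and 196 and 206 CPM in AAC (1.64 ± 0.11, edgeR adjusted p = 1.9e-06). CRC1, the mitochondrial acetylcarnitine carrier, had 257 and 237 CPM in B184 and 79.3 and 93 CPM in AAC (1.52 ± 0.18, edgeR adjusted p = 2.4e-04). These 3 genes were well separated between the strains. CAT2, the carnitine acetyltransferase of mitochondria and peroxisomes, had 212 and 222 CPM in B184 and 80.2 and 147 CPM in AAC (0.93 ± 0.27, edgeR adjusted p = 0.029), a call that was lost in the fit of 4 libraries and without either B184 replicate (adjusted p between 0.08 and 0.1).

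Gluconeogenesis and the glyoxylate cycle were higher in B184, with a median of 0.79. Of 12 tested genes 6 rose and 1 fell (14.8% and 21.5% among all genes). PCK1, the phosphoenolpyruvate carboxykinase that commits carbon to gluconeogenesis, had 686 and 547 CPM in B184 and 22.9 and 37.7 CPM in AAC (log2 fold change 4.34 ± 0.24, edgeR adjusted p = 1.9e-06). ICL1, the isocitrate lyase of the glyoxylate cycle, had 1120 and 1063 CPM in B184 and 72.2 and 132 CPM in AAC (3.41 ± 0.25, edgeR adjusted p = 1.1e-05). MLS1, malate synthase, had 1520 and 1380 CPM in B184 and 241 and 308 CPM in AAC (2.40 ± 0.28, edgeR adjusted p = 2.6e-04). The strains did not overlap in any of these.

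FBP1, fructose-1,6-bisphosphatase, had 128 and 115 CPM in B184 and 23.5 and 41.1 CPM in AAC (log2 fold change 1.90 ± 0.18, edgeR adjusted p = 4.7e-05). SIP4, a transcription factor that binds the carbon source response element, had 168 and 179 CPM in B184 and 20.8 and 31.7 CPM in AAC (2.72 ± 0.19, edgeR adjusted p = 6.7e-06). The mRNAs of the other activators did not pass. CAT8 had 111 and 105 CPM in B184 and 83.1 and 145 CPM in AAC (−0.08 ± 0.24, edgeR adjusted p = 0.81), and ADR1 had 239 and 233 CPM in B184 and 194 and 256 CPM in AAC (0.07 ± 0.10, edgeR adjusted p = 0.64, or 0.0073 without AAC replicate 2). ICL2, a mitochondrial 2-methylisocitrate lyase of propionate breakdown, was the member that fell, with 158 and 147 CPM in B184 and 254 and 435 CPM in AAC (−1.18 ± 0.23, edgeR adjusted p = 0.0051).

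The AAC replicates also differed along these pathways, and this was measured for each list. In AAC replicate 2 all 19 genes of fatty acid oxidation and the carnitine shuttle were above AAC replicate 1, by a median of 0.44 on the log2 scale. The medians were 0.66 for ethanol and acetate use and 0.65 for gluconeogenesis, and the corresponding medians between the B184 replicates were 0.03, 0.06 and −0.08. Of the called genes of fatty acid oxidation, 8 lower and 5 higher ones had a gap between the strains wider than the difference between the AAC replicates. Over all genes outside chromosome III this held for 889 of 1194 lower and 647 of 825 higher ones. Without AAC replicate 1 the list had 12 lower and 4 higher genes, and without AAC replicate 2 it had 11 lower and 5 higher genes. Without B184 replicate 1 there were 10 lower and 4 higher, without B184 replicate 2 9 lower and 3 higher, and in the fit of 4 libraries 8 lower and 3 higher.

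**Figure D2:**
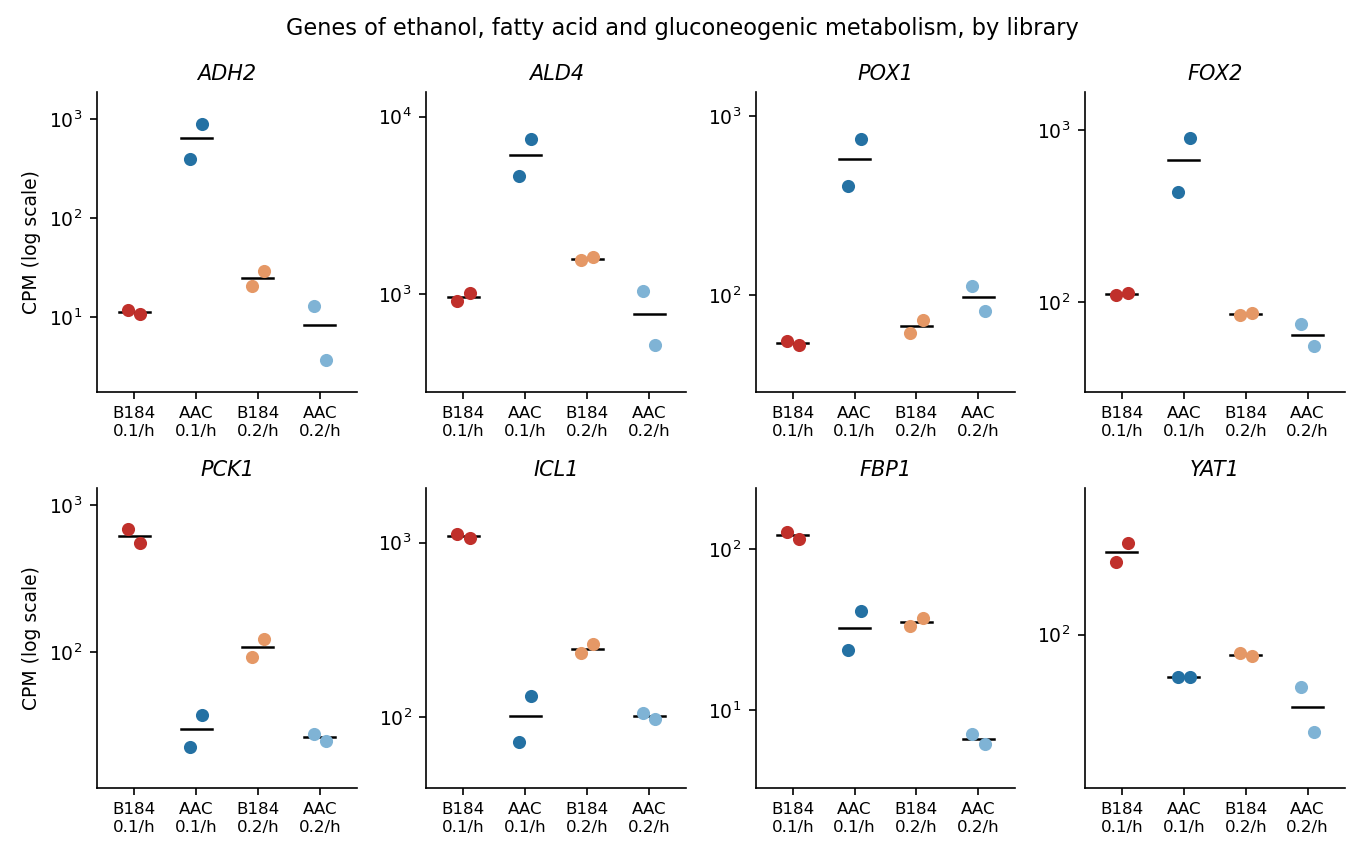
CPM on a log axis of 8 genes in B184 and AAC at 0.1/h and, beside them, at 0.2/h (x axis), with a point for each of 2 libraries and a black bar for their mean. At 0.1/h ADH2, ALD4, POX1 and FOX2 were lower in B184 than in AAC, and PCK1, ICL1, FBP1 and YAT1 were higher, with no overlap of the libraries in any panel.

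Promoter windows are shown for 2 genes that fell and 2 that rose, and the letters marked in each pair were chosen beforehand. Windows come from RefSeq's R64 annotation, the assembly to which the authors mapped, and are written 5′ to 3′ on the strand of the gene. The letters searched were TTGGAG, part of the Adr1 site, and the core of the carbon source response element bound by Cat8 and Sip4, on both strands, within 500 bases before the start codon. Capitals mark TTGGAG in the windows of ADH2 and FOX2 and the response element in those of ICL1 and PCK1. The other letters were not marked in either pair, so the windows do not compare the pairs. ADH2 lies on the minus strand and its window is chrXIII:874569-874668, FOX2 on the minus strand at chrXI:457218-457303, ICL1 on the minus strand at chrV:287262-287352 and PCK1 on the plus strand at chrXI:630652-630721.
ADH2: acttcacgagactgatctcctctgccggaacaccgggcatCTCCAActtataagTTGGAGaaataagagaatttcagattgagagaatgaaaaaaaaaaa
FOX2: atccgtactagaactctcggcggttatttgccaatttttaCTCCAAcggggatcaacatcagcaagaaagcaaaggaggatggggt
ICL1: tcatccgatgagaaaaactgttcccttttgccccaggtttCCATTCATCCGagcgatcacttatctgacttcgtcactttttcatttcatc
PCK1: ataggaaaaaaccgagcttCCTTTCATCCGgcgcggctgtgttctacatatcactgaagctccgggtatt

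The ADH2 window holds TTGGAG on both strands, starting 291 and 277 bases before the start codon, and the FOX2 window holds it 209 bases before the start codon. TTGGAG was found in 9 of 19 promoters of fatty acid oxidation and the carnitine shuttle (47.4%), in 3 of 10 of ethanol and acetate use and in 18.5% of 5549 promoters outside chromosome III. The carbon source response element was found in 2 of 12 promoters of gluconeogenesis, those of ICL1 and PCK1 starting 398 and 481 bases before the start codon, and in 1.93% of all promoters. It was also found in 1 of 10 promoters of ethanol and acetate use and in 1 of 19 of fatty acid oxidation and the carnitine shuttle. TTGGAG was not counted in the gluconeogenesis list. A match describes letters in the reference and not a bound site.

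The same strains were compared at 0.2/h, and the strain difference at 0.1/h was tested against that at 0.2/h. The 0.2/h cultures share no library with those at 0.1/h. At 0.2/h 1975 of the 5561 genes (35.5%) passed, 939 higher and 1036 lower in B184. The strain difference was called at both rates for 1097 genes, with the same sign in 1051 and the opposite sign in 46. It differed between the rates themselves in 306 genes (5.5%), and 12 of the 19 genes of fatty acid oxidation and the carnitine shuttle were among those.

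At 0.2/h ADH2 had 20.7 and 29.1 CPM in B184 and 13 and 3.71 CPM in AAC. The AAC libraries at 0.2/h were thus far below those at 0.1/h, and the B184 libraries were low at both rates. Its strain difference at 0.1/h minus that at 0.2/h was −7.39 ± 1.04 (edgeR adjusted p = 0.011). ALD4 was higher in B184 at 0.2/h (1.02, edgeR adjusted p = 0.03), and the difference between the rates was −3.68 ± 0.45 (edgeR adjusted p = 0.003). POX1 did not pass at 0.2/h (−0.54, edgeR adjusted p = 0.17), with a difference between the rates of −2.87 ± 0.40 (edgeR adjusted p = 0.008). CTA1 was higher in B184 at 0.2/h by 3.13 and differed between the rates by −4.86 ± 0.59 (edgeR adjusted p = 0.0063).

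PCK1 and ICL1 rose at both rates and by more at 0.1/h, with differences between the rates of 2.31 ± 0.31 (edgeR adjusted p = 0.0039) for PCK1 and 2.13 ± 0.33 (edgeR adjusted p = 0.0077) for ICL1. For FBP1 the difference between the rates was −0.51 ± 0.31 and did not pass (edgeR adjusted p = 0.37). For SIP4 it was 0.28 ± 0.28 (edgeR adjusted p = 0.61). At 0.2/h the gluconeogenesis list had 7 of 12 genes higher and none lower, and fatty acid oxidation with the carnitine shuttle had 7 of 19 higher and 2 lower.

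**Figure D3:**
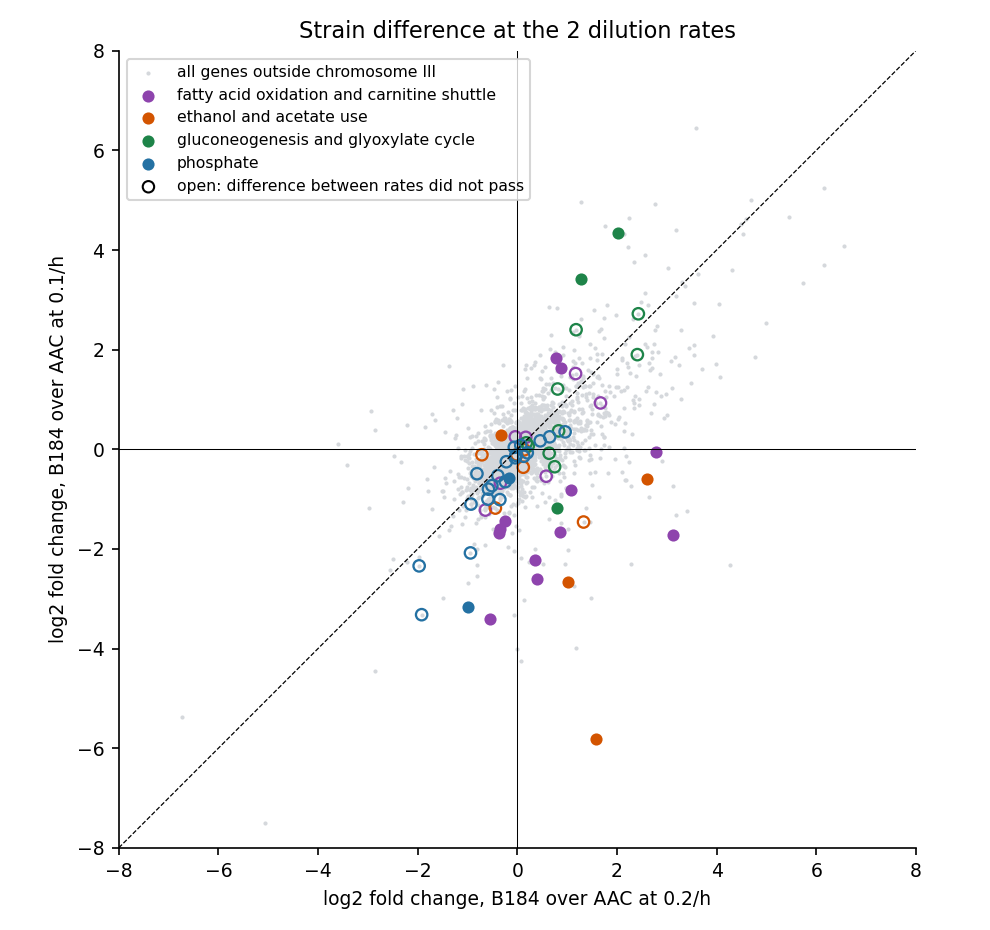
Each point is a gene outside chromosome III, placed by the log2 fold change of B184 over AAC at 0.2/h (x axis) and at 0.1/h (y axis). Coloured points belong to 4 of the lists and grey points are all genes. Filled points are list members whose strain difference differed between the rates at an adjusted p under 0.05, open ones did not pass, and the dashed line marks equal values. ADH2 lies at 1.57 and −5.82 and PCK1 at 2.03 and 4.34 on the 2 axes.

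MH34, the direct parent of B184, was also given ethanol at 0.1/h. Its comparison with AAC uses the same AAC libraries and is not independent. ADH2 had 19.4 and 16.2 CPM in MH34, POX1 57.3 and 54.6 CPM, and ALD4 1359 and 1235 CPM, close to the B184 values above. Between B184 and MH34 neither ADH2 (log2 fold change −0.65, edgeR adjusted p = 0.51) nor POX1 (−0.05, edgeR adjusted p = 0.89) nor ALD4 (−0.43, edgeR adjusted p = 0.25) passed. PCK1 had 2305 and 2568 CPM in MH34 and was lower in B184 than in MH34 by a log2 fold change of −1.98 (edgeR adjusted p = 1.9e-05). ICL1 had 2476 and 2539 CPM in MH34 and was likewise lower in B184 (−1.20, edgeR adjusted p = 0.0013).

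Hexose carriers were exchanged in B184. Of 17 tested genes of hexose transport 8 rose and 3 fell (14.8% and 21.5% among all genes). The low-affinity carriers were among those that rose and the high-affinity carriers HXT6 and HXT7 among those that fell. HXT3 had 1378 and 1222 CPM in B184 and 54.5 and 29 CPM in AAC (log2 fold change 4.97 ± 0.27, edgeR adjusted p = 1.7e-06). HXT1, the carrier with the lowest affinity, had 74.9 and 68.6 CPM in B184 and 6.78 and 3.09 CPM in AAC (3.90 ± 0.56, edgeR adjusted p = 0.0016). HXT4 had 442 and 408 CPM in B184 and 76 and 54.9 CPM in AAC (2.70 ± 0.16, edgeR adjusted p = 1.2e-06). These carriers stood clear of each other by strain in every library.

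HXT6 had 2 and 0 counts in the B184 libraries and 143 and 245 counts in the AAC libraries. The ratio of B184 to AAC was 0.00492, with an exact 95% interval from 0.000594 to 0.0179 that covers counting error only. HXT6 and HXT7 are 99.8% identical, and how reads that fit both were counted is not given in the sources used here, so their sum is the safer value. Summed, they had 53.8 and 78.4 CPM in B184 and 234 and 365 CPM in AAC. HXT7 alone had 53.5 and 78.4 CPM in B184 and 212 and 332 CPM in AAC (log2 fold change −2.05 ± 0.44, edgeR adjusted p = 0.0098), a call lost without B184 replicate 1 (adjusted p = 0.06). HXT13 and HXT17, which are 96.5% identical, were close to 0 in AAC, with HXT13 at 25.2 and 29.1 CPM in B184 and 0 and 2.95 CPM in AAC and HXT17 at 5.06 and 7.06 CPM in B184 and 0 and 0.268 CPM in AAC.

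HXT3 rose at 0.2/h too, by less than at 0.1/h (difference 3.69 ± 0.34, edgeR adjusted p = 4.6e-04). Of 17 genes for the use of other sugars 10 rose and none fell (14.8% and 21.5% among all genes), with a median of 1.06. The list takes in maltose, isomaltose, galactose and sucrose genes. IMA5, an isomaltase, had 72.7 and 81.9 CPM in B184 and 13.2 and 14.6 CPM in AAC (log2 fold change 2.47 ± 0.33, edgeR adjusted p = 7.8e-04). That list also moved between the AAC replicates, with a median of 0.53, and in the fit of 4 libraries 4 genes rose. Without B184 replicate 2 there were 5. MIG2 and MIG3, repressors of the Mig family that act when glucose is present, rose as well. MIG2 had 141 and 136 CPM in B184 and 60.4 and 29 CPM in AAC (1.65 ± 0.30, edgeR adjusted p = 0.004), and MIG3 had 48.3 and 52 CPM in B184 and 14.8 and 12.4 CPM in AAC (1.89 ± 0.12, edgeR adjusted p = 1.9e-06).

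Phosphate genes were lower in B184. As background, when phosphate is short the kinase complex Pho80-Pho85 is inhibited by Pho81, and the factor Pho4 enters the nucleus and switches on phosphatases and carriers. Of 23 tested phosphate genes 12 fell and none rose (21.5% and 14.8% among all genes), with a median of −0.53. Each of the 12 had a gap wider than the difference between the AAC replicates, as had 889 of all 1194 lower genes outside chromosome III. PHO5, the secreted acid phosphatase, had 30.2 and 30.1 CPM in B184 and 382 and 224 CPM in AAC (log2 fold change −3.32 ± 0.34, edgeR adjusted p = 2.7e-04). PHO84, the high-affinity phosphate carrier, had 77 and 84.2 CPM in B184 and 694 and 749 CPM in AAC (−3.16 ± 0.23, edgeR adjusted p = 9.3e-06). The lowest AAC library of each gene was several times above the highest B184 library.

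PHO89, the sodium-coupled phosphate carrier, had 164 and 113 CPM in B184 and 616 and 784 CPM in AAC (log2 fold change −2.34 ± 0.25, edgeR adjusted p = 2.0e-04). SPL2, a small protein that lowers low-affinity phosphate uptake, had 5.33 and 6.06 CPM in B184 and 23.8 and 24.3 CPM in AAC (−2.08 ± 0.30, edgeR adjusted p = 5.8e-04). VTC3, a subunit of the vacuolar polyphosphate polymerase, had 118 and 132 CPM in B184 and 276 and 258 CPM in AAC (−1.10 ± 0.15, edgeR adjusted p = 2.7e-04). All 5 of these genes were also lower in B184 at 0.2/h, by −1.92 for PHO5, −0.99 for PHO84, −1.97 for PHO89, −0.94 for SPL2 and −0.93 for VTC3. The difference between the rates passed for PHO84 (−2.18 ± 0.30, edgeR adjusted p = 0.0047).

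In MH34 at 0.1/h PHO5 had 41.6 and 44.5 CPM and PHO84 63.7 and 84.4 CPM, near the B184 values. PHO89 had 404 and 399 CPM and SPL2 21 and 20.5 CPM in MH34. B184 was lower than MH34 in PHO89 (log2 fold change −1.54, edgeR adjusted p = 6.2e-04) and in SPL2 (−1.87, edgeR adjusted p = 3.5e-04). A noncoding gene is annotated antisense to PHO84, and the strand setting of the counting is not given in the sources used here, so reads of the antisense RNA cannot be told apart from those of PHO84.

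**Figure D4:**
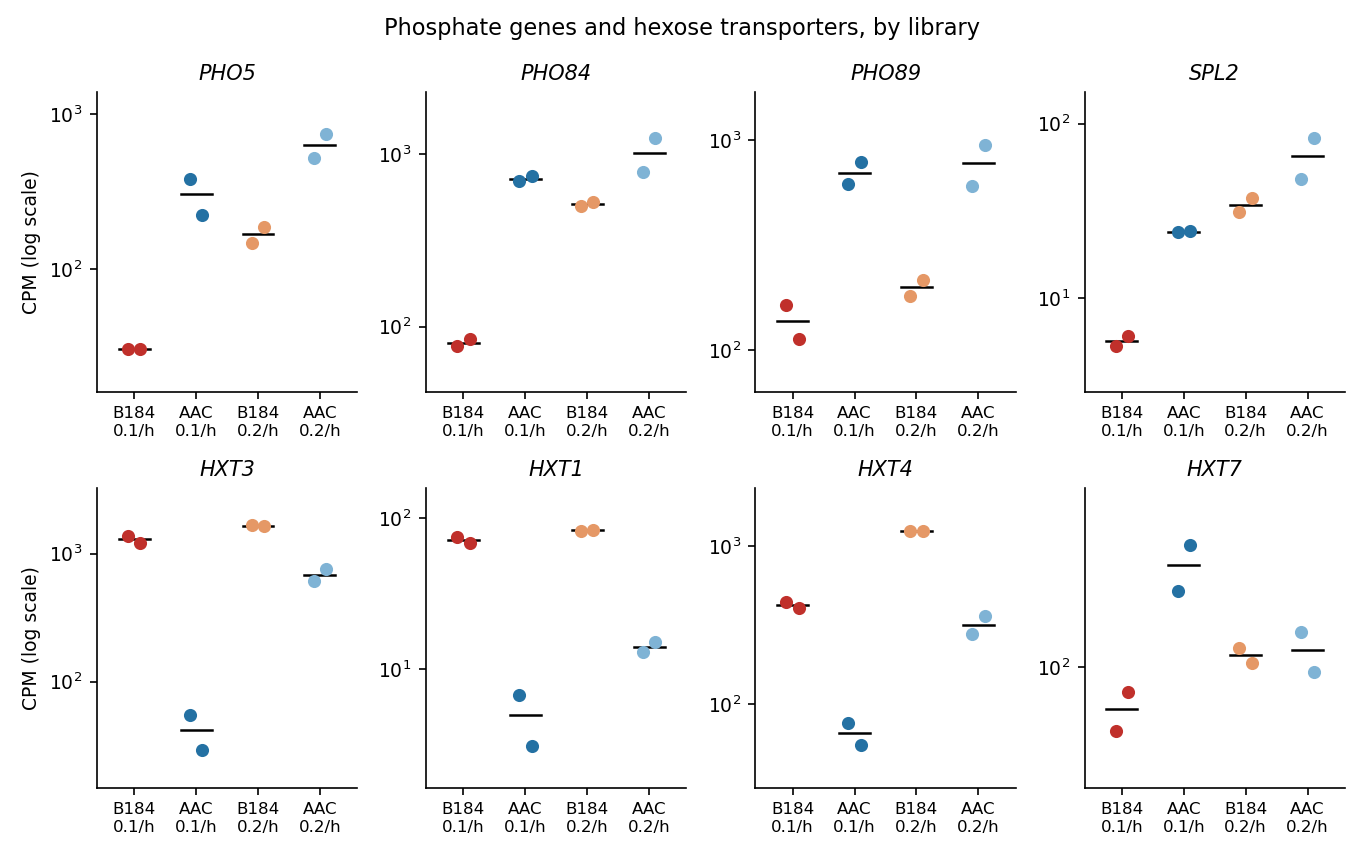
CPM on a log axis of 4 phosphate genes (upper row) and 4 hexose carriers (lower row) in B184 and AAC at 0.1/h and at 0.2/h (x axis), with a point for each of 2 libraries and a black bar for their mean. The phosphate genes were lower in B184 at either rate, and HXT3, HXT1 and HXT4 were higher.

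CACGTG, the core bound by Pho4 and also by Cbf1, a factor of the sulfur genes, is shown in capitals in the promoters of 2 phosphate genes that fell and of MET2, a sulfur gene that rose. The windows are chrXIII:26169-26276 on the minus strand for PHO84, chrII:431159-431244 on the minus strand for PHO5 and chrXIV:116956-117041 on the plus strand for MET2. The PHO84 window overlaps the annotated open reading frame YML122C.
PHO84: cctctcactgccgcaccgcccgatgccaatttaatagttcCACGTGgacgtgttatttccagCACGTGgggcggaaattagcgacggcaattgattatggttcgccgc
PHO5: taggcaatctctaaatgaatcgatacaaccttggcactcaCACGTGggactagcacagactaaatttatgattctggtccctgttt
MET2: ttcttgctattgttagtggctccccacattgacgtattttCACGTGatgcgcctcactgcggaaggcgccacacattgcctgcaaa

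The matches start 436 and 414 bases before the start codon of PHO84, 253 bases before that of PHO5 and 353 bases before that of MET2. CACGTG was found within 500 bases before the start codon of 16 of 23 phosphate genes (69.6%) and of 22 of 34 sulfur and methionine genes (64.7%), and in 6.2% of all promoters outside chromosome III. The same letters thus occurred in a list whose called genes all fell and in a list with genes called in either direction.

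Of 34 genes of sulfur assimilation and methionine synthesis 13 rose and 5 fell (14.8% and 21.5% among all genes). The median was 0.26. MET2, homoserine acetyltransferase, had 128 and 135 CPM in B184 and 19.2 and 23 CPM in AAC (log2 fold change 2.64 ± 0.14, edgeR adjusted p = 5.3e-07). MET32, a transcription factor of the pathway, had 39.7 and 41.1 CPM in B184 and 8.2 and 8.59 CPM in AAC (2.26 ± 0.20, edgeR adjusted p = 1.2e-05). MET3, ATP sulfurylase, had 114 and 116 CPM in B184 and 51.9 and 57.7 CPM in AAC (1.06 ± 0.07, edgeR adjusted p = 2.1e-06). Within each strain the replicates of these genes were close, and the strains were far apart.

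SAM1, an S-adenosylmethionine synthetase, rose by 1.01 ± 0.15 (edgeR adjusted p = 6.2e-04). SUL1, a high-affinity sulfate permease, went the other way, with 26 and 27.7 CPM in B184 and 70.9 and 146 CPM in AAC (log2 fold change −2.02 ± 0.32, edgeR adjusted p = 0.0018). In 13 of the 34 genes the strain difference differed between the rates. At 0.2/h 5 of the 34 were higher and 13 lower in B184, and MET3 (0.09) and SAM1 (−0.15) did not pass there. MET3 was lower in B184 than in MH34 at 0.1/h (log2 fold change −1.79, edgeR adjusted p = 2.9e-08), where it had 405 and 391 CPM in MH34.

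Genes for aromatic amino acids, histidine, arginine and lysine were called only as lower in B184. Of 21 genes for aromatic amino acids and histidine 12 fell and none rose (median −0.35), and of 19 genes for arginine and lysine 8 fell and none rose (median −0.33). HIS1, which starts histidine synthesis, had 147 and 131 CPM in B184 and 284 and 227 CPM in AAC (log2 fold change −0.88 ± 0.11, edgeR adjusted p = 1.2e-04). The arginine and lysine count was 5 without either B184 replicate. For branched-chain amino acids 2 of 11 genes rose and 4 fell, and for serine, glycine and threonine 1 of 14 rose and 5 fell. The shares of all genes were 14.8% higher and 21.5% lower. Amino acid and ammonium permeases were near these shares, with 4 of 21 higher and 5 lower. BAP2, a permease of branched-chain amino acids, had 316 and 307 CPM in B184 and 573 and 804 CPM in AAC (−1.15 ± 0.13, edgeR adjusted p = 8.9e-05). OPT1, an oligopeptide transporter, had 41.6 and 38.3 CPM in B184 and 12.8 and 9.26 CPM in AAC (1.87 ± 0.18, edgeR adjusted p = 1.9e-05). Biotin and NAD synthesis had 8 of 16 genes lower and none higher, and BIO5, the carrier of a biotin precursor, had 208 and 177 CPM in B184 and 543 and 579 CPM in AAC (−1.54 ± 0.17, edgeR adjusted p = 1.1e-04).

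Some genes of glycolysis and of the pentose phosphate pathway fell in B184. Of 14 tested glycolytic genes 5 fell and none rose (median −0.37), and 3 fell without B184 replicate 1. TDH2, a glyceraldehyde-3-phosphate dehydrogenase, had 257 and 318 CPM in B184 and 1476 and 1418 CPM in AAC (log2 fold change −2.33 ± 0.18, edgeR adjusted p = 6.3e-06). ENO2, an enolase, had 853 and 965 CPM in B184 and 2544 and 2092 CPM in AAC (−1.35 ± 0.14, edgeR adjusted p = 3.2e-05). FBA1, the aldolase, had 2596 and 2607 CPM in B184 and 6088 and 6318 CPM in AAC (−1.25 ± 0.16, edgeR adjusted p = 1.7e-04). TDH2 and ENO2 have copies that are up to 95.8% and 94.8% identical, and reads shared with these copies could have been split between them.

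Of 11 genes of the pentose phosphate pathway 4 fell and none rose, with a median of −0.13. SOL3, a 6-phosphogluconolactonase, had 95.8 and 102 CPM in B184 and 267 and 236 CPM in AAC (log2 fold change −1.35 ± 0.18, edgeR adjusted p = 3.8e-04). GND1, 6-phosphogluconate dehydrogenase, had 392 and 464 CPM in B184 and 980 and 767 CPM in AAC (−1.03 ± 0.19, edgeR adjusted p = 0.0022). TKL1, a transketolase, had 396 and 453 CPM in B184 and 890 and 680 CPM in AAC (−0.89 ± 0.14, edgeR adjusted p = 6.4e-04). The TCA cycle had 2 of 17 genes higher and 2 lower, the respiratory chain 4 of 22 lower and none higher, and ATP synthase 2 of 17 lower and none higher, all under the shares of all genes (14.8% higher and 21.5% lower).

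Of 26 ergosterol genes 13 fell and 3 rose in B184 (median −0.26). Of 28 genes of fatty acid and phospholipid synthesis 13 fell and 3 rose (median −0.32). The shares of all genes were 21.5% lower and 14.8% higher. Of the ergosterol genes none rose without AAC replicate 2 or in the fit of 4 libraries, and 1 rose without B184 replicate 2. Of the fatty acid and phospholipid genes 8 fell without B184 replicate 1 and in the fit of 4 libraries, and 1 rose without B184 replicate 2 or AAC replicate 2. HMG1, an HMG-CoA reductase of the sterol pathway, had 149 and 151 CPM in B184 and 297 and 350 CPM in AAC (log2 fold change −1.11 ± 0.09, edgeR adjusted p = 6.3e-06). ERG1, squalene epoxidase, had 252 and 229 CPM in B184 and 400 and 406 CPM in AAC (−0.74 ± 0.09, edgeR adjusted p = 1.3e-04). ERG11, lanosterol demethylase, had 354 and 339 CPM in B184 and 561 and 565 CPM in AAC (−0.70 ± 0.09, edgeR adjusted p = 1.7e-04). The strains were apart in all 3, and in MH34 ERG11 was higher than in AAC at 0.1/h (0.93, edgeR adjusted p = 3.8e-06).

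OPI3, a phospholipid methyltransferase of phosphatidylcholine synthesis, had 488 and 495 CPM in B184 and 1260 and 963 CPM in AAC (log2 fold change −1.18 ± 0.18, edgeR adjusted p = 5.8e-04). INO2 and INO4 encode the partners that activate phospholipid genes when inositol is short. INO2 had 65.8 and 63.6 CPM in B184 and 137 and 97.7 CPM in AAC (−0.86 ± 0.16, edgeR adjusted p = 0.0028), and INO4 had 74.3 and 64.9 CPM in B184 and 121 and 116 CPM in AAC (−0.76 ± 0.10, edgeR adjusted p = 2.4e-04). ITR1, an inositol carrier, fell by 0.88 ± 0.20 (edgeR adjusted p = 0.0054). INO1, the inositol-3-phosphate synthase that Ino2 and Ino4 activate, was higher, with 3276 and 3981 CPM in B184 and 1932 and 1212 CPM in AAC (1.21 ± 0.32, edgeR adjusted p = 0.017), but that call was lost without B184 replicate 2 (adjusted p = 0.085) and without AAC replicate 2 (adjusted p = 0.1).

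Genes for making ribosomes were lower in B184, in a number that changed with the AAC library used. Of 138 genes of ribosome biogenesis 61 fell and none rose (21.5% and 14.8% among all genes), with a median of −0.34. AAC replicate 2 was below AAC replicate 1 in 137 of the 138, by a median of −0.40. The count was 119 without AAC replicate 2, 32 without AAC replicate 1 and 27 without B184 replicate 2, and 17 in the fit of 4 libraries. For 16 of the 61 genes the gap between the strains was wider than the difference between the AAC replicates, against 889 of all 1194 lower genes outside chromosome III. ESF1, a nucleolar factor for 18S rRNA processing, was the member with the widest gap, with 214 and 241 CPM in B184 and 415 and 404 CPM in AAC (log2 fold change −0.85 ± 0.09, edgeR adjusted p = 6.5e-05). The promoter letters GATGAG, known as PAC, were present in 124 of the 138 promoters (89.9%) against 27.9% of all promoters, and AAAATTTT, known as RRPE, in 78.3% against 12.7%.

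Of 137 genes of cytosolic ribosomal proteins 13 fell and 1 rose, under the share of all genes, with a median of −0.10, but 136 of the 137 were lower in AAC replicate 2 than in replicate 1, and the balance turned with the library left out. Without AAC replicate 1 there were 5 lower and 11 higher genes, without AAC replicate 2 73 lower and 1 higher, without either B184 replicate 6 lower and 1 higher, and in the fit of 4 libraries 3 lower and 1 higher. Mitochondrial ribosomal proteins had 39 of 66 genes lower and none higher (21.5% and 14.8% among all genes), with a median of −0.33. Here AAC replicate 2 was the higher one in 65 of 66 genes. The count was 45 without AAC replicate 1, 24 without AAC replicate 2, 21 without B184 replicate 2 and 16 in the fit of 4 libraries. MRP21, a subunit of the small mitochondrial ribosome, had 54.1 and 54.4 CPM in B184 and 85.7 and 86.3 CPM in AAC (log2 fold change −0.67 ± 0.09, edgeR adjusted p = 2.6e-04).

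Outside chromosome III the secretory pathway, through which α-amylase passes, changed by small amounts. PDI1, a folding gene on chromosome III, is not among the genes counted here. The paper reports that its mRNA was significantly increased in both evolved strains. Of 18 genes of ER chaperones and folding outside chromosome III 7 fell and none rose (median −0.19), a count of 2 without B184 replicate 2, 3 without B184 replicate 1 or AAC replicate 1, 2 with library totals in place of TMM scaling, and 1 in the fit of 4 libraries. HAC1, the transcription factor of the unfolded protein response, had 633 and 619 CPM in B184 and 1190 and 996 CPM in AAC (log2 fold change −0.80 ± 0.11, edgeR adjusted p = 2.9e-04). KAR2, the main ER chaperone, had 1220 and 1329 CPM in B184 and 1600 and 1386 CPM in AAC and did not pass (−0.23 ± 0.15, edgeR adjusted p = 0.26). N-glycosylation and trimming had 9 of 31 genes lower and none higher (median −0.13), and translocation into the ER had 7 of 24 lower and 4 higher, beside 21.5% lower and 14.8% higher among all genes. The N-glycosylation count was 5 without B184 replicate 2 and 4 in the fit of 4 libraries. For translocation it was 4 lower without AAC replicate 1, 11 without AAC replicate 2 and 1 in the fit of 4 libraries, where none was higher. ALG12, a mannosyltransferase that builds the glycan precursor in the ER, had 117 and 124 CPM in B184 and 197 and 201 CPM in AAC (−0.72 ± 0.07, edgeR adjusted p = 3.3e-05).

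The list of Golgi mannosyltransferases also holds other Golgi proteins, such as KEX2 and PMR1. Its genes went in either direction, with 5 of 27 higher and 9 lower (14.8% and 21.5% among all genes). The lower count was 5 in the fit of 4 libraries. It also fell when B184 replicate 1, B184 replicate 2 or AAC replicate 1 was left out. OCH1, which starts the outer mannose chain of N-glycans in the Golgi, had 219 and 220 CPM in B184 and 112 and 102 CPM in AAC (log2 fold change 1.04 ± 0.10, edgeR adjusted p = 2.1e-05). Its rise was larger than at 0.2/h (difference 0.76 ± 0.14, edgeR adjusted p = 0.011). COPII and COPI trafficking had 8 of 36 genes lower, near the share of all genes (21.5%), and 3 higher, of which none was left in the fit of 4 libraries or without B184 replicate 2. GPI anchoring and mannosylation had 9 of 26 lower and none higher, with 5 lower without B184 replicate 1 or AAC replicate 1, 3 without B184 replicate 2 and 2 in the fit of 4 libraries. ER-associated degradation had 4 of 17 lower and 1 higher, and the proteasome 1 of 36 lower and 2 higher, which is under the share of all genes.

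Cell cycle and mating genes leaned upward in B184. Of 21 cyclins and genes of cell cycle entry 11 rose and 2 fell (median 0.24). Of 37 replication genes 13 rose and none fell (median 0.17), beside 14.8% higher and 21.5% lower among all genes. HUG1, an inhibitor of ribonucleotide reductase that is induced by DNA damage, had 78.9 and 61.8 CPM in B184 and 1.42 and 2.82 CPM in AAC (log2 fold change 5.01 ± 0.21, edgeR adjusted p = 2.0e-07). RNR3, a large subunit of ribonucleotide reductase induced by the same signal, had 31.6 and 40.5 CPM in B184 and 13.4 and 12.6 CPM in AAC (1.47 ± 0.32, edgeR adjusted p = 0.0074, or 0.054 without AAC replicate 2). HUG1 rose at 0.2/h too (4.70), and the difference between the rates was 0.31 ± 0.36 (edgeR adjusted p = 0.67).

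POL30, the sliding clamp PCNA, had 104 and 97.3 CPM in B184 and 55.5 and 52.9 CPM in AAC (log2 fold change 0.89 ± 0.09, edgeR adjusted p = 3.3e-05). CLB6, a cyclin of S phase, had 15.6 and 20.2 CPM in B184 and 8.2 and 8.19 CPM in AAC (1.12 ± 0.21, edgeR adjusted p = 0.002). ACGCGT, the MCB box of G1 genes, was present in 16 of 37 replication promoters (43.2%) against 5.48% of all promoters. AAC replicate 2 was below replicate 1 in 17 of the 21 cyclin genes, by a median of −0.15, and 7 rose without AAC replicate 2.

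Of 24 mating and a-specific genes outside chromosome III 8 rose and 1 fell (14.8% and 21.5% among all genes). The median was 0.70. FAR1, which arrests the cell cycle on pheromone, had 219 and 244 CPM in B184 and 120 and 76 CPM in AAC (log2 fold change 1.24 ± 0.24, edgeR adjusted p = 0.0044). MF(ALPHA)1, an α-factor gene known as specific to α cells, had 3708 and 3478 CPM in B184 and 939 and 471 CPM in AAC (2.35 ± 0.44, edgeR adjusted p = 0.0046). STE3, the receptor of α cells, was the gene that fell (−0.88 ± 0.13, edgeR adjusted p = 3.6e-04), opposite to MF(ALPHA)1. Both strains are MATa, and the source of the MF(ALPHA)1 reads was not tested. AAC replicate 2 was below replicate 1 in 23 of the 24 genes, by a median of −0.21. The number that rose was 3 without AAC replicate 2, 5 without B184 replicate 1, 4 without B184 replicate 2 and 12 in the fit of 4 libraries. TGAAACA, the pheromone response element, was found in 17 of the 24 promoters (70.8%) against 11.8% of all promoters.

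Cell wall genes were among the widest gaps in either direction. Of 39 tested genes 12 rose and 3 fell (14.8% and 21.5% among all genes), with a median of 0.13. FLO11, the flocculin that binds cells to each other and to surfaces, had 4830 and 7635 CPM in B184 and 66.7 and 77.2 CPM in AAC. Its log2 fold change was 6.44 ± 1.36 (edgeR adjusted p = 0.0094), and its call was lost without AAC replicate 1 (adjusted p = 0.076) or AAC replicate 2 (adjusted p = 0.063). TIR3, a wall mannoprotein of anaerobic cells, had 141 and 173 CPM in B184 and 6.15 and 7.38 CPM in AAC (4.52 ± 0.15, edgeR adjusted p = 5.5e-08). TIR1, of the same family, had 17.2 and 18.6 CPM in B184 and 2.05 and 0.671 CPM in AAC (3.75 ± 0.31, edgeR adjusted p = 6.7e-06).

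CSS1, a cell wall protein gene, had 21.7 and 33.6 CPM in B184 and 1175 and 1103 CPM in AAC (log2 fold change −5.37 ± 0.29, edgeR adjusted p = 4.3e-06). It fell at 0.2/h too (−6.74). TIR3 rose at 0.2/h by 4.49, and the difference between the rates was 0.03 ± 0.22 (edgeR adjusted p = 0.95). Of 9 hypoxic isoforms and regulators 5 rose and 3 fell (14.8% and 21.5% among all genes). CYC7, the cytochrome c isoform 2, had 196 and 173 CPM in B184 and 18.6 and 29.8 CPM in AAC (2.92 ± 0.22, edgeR adjusted p = 1.9e-05). COX5B, a hypoxic subunit of cytochrome c oxidase, fell (−0.45 ± 0.13, edgeR adjusted p = 0.019), a call lost in the fit of 4 libraries (adjusted p = 0.11) and without B184 replicate 2 (adjusted p = 0.16) or AAC replicate 2 (adjusted p = 0.088).

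Genes of reserve carbohydrates were higher in B184, and they also differed between the AAC replicates. Of 14 glycogen genes 7 rose and 1 fell (median 0.74). Of 7 trehalose genes 4 rose and none fell (median 0.40), beside 14.8% higher and 21.5% lower among all genes. GSY1, a glycogen synthase, had 224 and 258 CPM in B184 and 54.1 and 83.9 CPM in AAC (log2 fold change 1.80 ± 0.26, edgeR adjusted p = 0.0012). AAC replicate 2 was above replicate 1 in 13 of the 14 glycogen genes, by a median of 0.73, and in all 7 trehalose genes, by 0.61. The number of glycogen genes that rose was 13 without AAC replicate 2 and 4 without any of the other libraries in turn. For trehalose the number that rose was 7 without AAC replicate 2, 2 without B184 replicate 1, 0 without B184 replicate 2 and 1 without AAC replicate 1, where 2 fell, and no trehalose gene had a gap wider than the AAC difference.

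Autophagy had 7 of 21 genes higher and 1 lower (14.8% and 21.5% among all genes). The list of vacuolar proteases, which also holds other genes such as AMS1 and YPS1, had 6 of 13 higher and none lower (median 0.37). AAC replicate 2 was above replicate 1 in 18 of the 21 and in all 13, by medians of 0.22 and 0.33. The gap was wider than the AAC difference in 4 of the 7 and 3 of the 6 higher genes. ATG7, which activates the ubiquitin-like proteins of autophagy, had 88.7 and 96.2 CPM in B184 and 41.9 and 59.2 CPM in AAC (log2 fold change 0.86 ± 0.13, edgeR adjusted p = 5.7e-04). Without AAC replicate 1 the counts were 3 for autophagy and 4 for vacuolar proteases. Without B184 replicate 2 they were 4 and 3.

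Genes of multidrug and weak acid export had no common direction, though single members differed widely. The list holds regulators such as PDR1 and WAR1 beside exporters. Of its 25 genes 7 rose and 9 fell (median 0.01), beside 14.8% higher and 21.5% lower among all genes. PDR12, the exporter of weak organic acids, had 148 and 138 CPM in B184 and 1119 and 1132 CPM in AAC (log2 fold change −2.98 ± 0.45, edgeR adjusted p = 0.0022). RSB1, which moves sphingoid bases across the plasma membrane, had 58.1 and 62.7 CPM in B184 and 2.36 and 2.95 CPM in AAC (4.49 ± 0.29, edgeR adjusted p = 2.1e-06). Of 28 iron genes 4 rose and 3 fell, no more than the shares of all genes (14.8% higher and 21.5% lower). The number that rose depended on which B184 replicate was used. SIT1, a carrier of iron siderophores, had 272 and 474 CPM in B184 and 162 and 160 CPM in AAC (1.21 ± 0.23, edgeR adjusted p = 0.0041), and in this list B184 replicate 2 lay above replicate 1 by a median of 0.52.

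Outside these functions, HMS1, a gene of a helix-loop-helix protein, had 29.7 and 28.8 CPM in B184 and 1.58 and 1.88 CPM in AAC (log2 fold change 4.06 ± 0.32, edgeR adjusted p = 6.1e-06). DFP4 had 57 and 58.2 CPM in B184 and 1.89 and 2.68 CPM in AAC (4.63 ± 0.21, edgeR adjusted p = 2.5e-07). LSO1 had 13.6 and 23.9 CPM in B184 and 0.63 and 1.07 CPM in AAC (4.41 ± 0.50, edgeR adjusted p = 9.3e-05). VBA5, of a family of amino acid transporters, had 99 and 97 counts in B184 and 2 and 4 counts in AAC.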

How the data were processed

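Messenger RNA from chemostats was sequenced in 12 libraries as stranded paired reads, and the authors mapped them to Ensembl R64-1-1 with an nf-core pipeline and deposited raw counts per gene. The submitters' processing notes name TopHat2 2.0.12, Cufflinks 2.2.1 and Subread 1.4.6. The strand setting and the treatment of reads with several matches are not given in the sources used here. Of 7126 genes 6048 matched the RefSeq annotation of R64, and the other 1078 held 0.194 to 0.216% of the counts.

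Counts were filtered with filterByExpr, scaled by TMM and tested with edgeR 4.0.16 (robust quasi-likelihood, R 4.3.3) in a single fit of the 12 libraries in 6 groups, with Benjamini-Hochberg adjustment over 6044 genes and a threshold of 0.05. Depth was 6040221 to 7304298 counts in the 4 libraries compared. Intervals on counts cover counting error only. Alternatives were a fit of 4 libraries, other scalings and filters, DESeq2 1.42.0, a replicate block, each library left out, and, chosen after seeing the data, a fit without MH34 and a rule on the difference between the AAC replicates. The test was checked on simulated data drawn with the same spread in every group, so the check did not cover spreads that differ between groups. Replicate numbers were not taken as pairs.

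Named genes outside chromosome III passed the test, averaged at least 50 counts and did not overlap between the strains. They were the 10 widest gaps in log2 CPM in each direction and the widest gap of each of 59 lists in each direction, with TPI1 and mating markers as label checks. Further genes were named after their values were seen: FOX2, FAA2, CTA1, TES1, ECI1, SPS19, PXA1, PXA2, PEX11, PIP2, FAT1, OAF1, ALD6, ACS1, ICL1, MLS1, FBP1, SIP4, CAT2, CRC1, YAT2, CAT8, ADR1, HXT1, HXT4, HXT7, HXT13, HXT17, MIG2, MIG3, ENO2, FBA1, GND1, TKL1, PHO89, SPL2, VTC3, INO2, INO4, ITR1, ERG1, ERG11, KAR2, POL30, FAR1, TIR1, MET32, MET3 and SAM1. The comparison, the lists and the tests were chosen with earlier results of these data known. Copies were matched with blastn 2.17.0 (at least 90% identity over 80% of the length), and promoters were scanned with Python 3.11.15.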

Additional observations from a re-analysis of the deposited data

Results flagged for a closer look

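For 43 named genes the log2 fold change of B184 over AAC at 0.1/h differed from that at 0.2/h by the interaction term of the edgeR fit, at an adjusted p under 0.05. The values are the effect at 0.1/h minus the effect at 0.2/h, with 2 libraries in each group. The difference was negative for these genes of ethanol, acetate and fatty acid use and of peroxisomes: ADH2 (−7.39), CTA1 (−4.86), ATO3 (−4.00), ALD4 (−3.68), ACS1 (−3.19), FOX2 (−3.00), POX1 (−2.87), FAA2 (−2.59), PXA1 (−2.50), SPS19 (−1.90), ECI1 (−1.27), PEX11 (−1.18), TES1 (−1.33) and ADH5 (−1.52). It was also negative for these genes of central carbon metabolism, mitochondria and propionate use, with CIT3 of the TCA list and ICL2 of the gluconeogenesis list among them: CIT3 (−2.92), ICL2 (−1.98), TDH2 (−1.52), FBA1 (−1.09), DIC1 (−1.13) and COX5B (−1.0). Further negative differences were those of SUL1 (−3.04), PHO84 (−2.18), BIO5 (−1.52), BAP2 (−1.30), CAR2 (−1.23), ESF1 (−1.11) and SNZ3 (−0.69). The difference was positive for HXT3 (3.69), PCK1 (2.31), ICL1 (2.13), YAT1 (1.07), YAT2 (0.76), IDH2 (1.0) and MIG3 (0.97). It was also positive for RSB1 (2.72), CTR3 (2.24), HMS1 (1.83), SIT1 (1.68), SAM1 (1.16), MET3 (0.98), MET2 (0.89), OCH1 (0.76) and POL30 (0.60). SNZ3 is 99.3% identical to SNZ2, and reads could have been split between them. Ethanol is named for B184 at 0.1/h only, so dilution rate and ethanol cannot be told apart in these differences.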

How the results depend on the processing

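Outside chromosome III 2019 genes passed, 825 higher and 1194 lower. The fit of the 4 libraries alone gave 980 (507 higher, 473 lower), and a log2 fold change of at least 1 left 291 (191 higher, 100 lower). Leaving out each library gave 1251 to 2156 genes, 560 to 864 higher and 691 to 1292 lower. The count was 1251 without B184 replicate 2, and the lower count was 691 without B184 replicate 2 and 791 without B184 replicate 1. For the difference between the rates, 306 genes became 131 to 786, with 131 without B184 replicate 2, 178 without B184 replicate 1 and 786 without AAC replicate 1. The cause was not tested. The share of calls that were higher was 40.9%, against 51.7% in the fit of 4 libraries and 50.4% with library totals. DESeq2 called 1679 genes. No called gene named in the text changed sign under these alternatives, and 27 of the 101 genes named by rule lost their call under some alternative. With the replicate number as a block 1902 genes passed (792 higher, 1110 lower) and 244 differed between the rates. Deviations of same-numbered libraries correlated at −0.315 to 0.462 over the pairs of groups, and at 0.105 for AAC and B184 at 0.1/h, so the numbers were not taken to pair the samples.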
